A study of Mus musculus with 10 samples.

Results

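Granins, the enzymes and helper proteins that mature prohormones, and the islet hormones insulin and glucagon were followed through 5 mouse tissues, with the hypothalamus set against the pancreas as sites that secrete peptide hormones. The members are the probe sets of either chip whose single gene symbol is Chga, Chgb, Scg2, Scg5, Pcsk1, Pcsk2, Cpe, Resp18, Ins2 or Gcg. Of these 10 genes 9 had a probe set, and 7 had 1 probe set while Cpe and Ins2 had 2, which gave 11 of 13069 probe sets, 4 on chip A and 7 on chip B. Pcsk2 had none under its name, so it has no intensity here and appears only in the search of start regions. RNA came from hypothalamus, pancreas, liver, muscle and white adipose tissue of adult female C57BL/6 mice, with no treatment or altered gene named in the labels. Which muscle was taken, the exact age and any pooling of animals are not stated there. The adipose arrays are titled for a preconfluent state, which goes against their source label, and they are called adipose-labelled. Each tissue was hybridised to 1 array of chip A and 1 of chip B, so there were 10 arrays and no replicates. The spread between animals is therefore unknown, no test across samples was possible, and precision is limited by the number of arrays.

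Peptide hormones and neuropeptides are made as larger precursors that enter dense-core granules and are cut there. The convertases Pcsk1 and Pcsk2 cut after pairs of basic residues, and the carboxypeptidase Cpe trims the basic residues that are left at the new ends. Granins are acidic proteins that are packed with the hormones and are themselves cut into peptides. Neurons of the hypothalamus and the endocrine cells of the pancreatic islets share this machinery, whereas acinar cells, which make up most of the pancreas, release digestive enzymes from granules of another kind.

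Values are intensities scaled within a chip. The noise bound of an array is the size of its 1st percentile, since values below 0 show how far an array scatters without signal. On chip A it was 258 for hypothalamus, 295 for liver, 389.6 for the adipose-labelled array, 1065 for muscle and 1166 for pancreas, and on chip B 649, 792, 918, 1638 and 2606 in that order. A value under its bound is not distinguished from noise, and the pancreas arrays had the highest bounds. A fold is the higher value over the other array's value or bound, whichever is larger, and is written "at least" where the bound sets it. For calls, low values were raised to a floor (chip A 175, chip B 123), and a probe set was called where it differed at least 4-fold between the tissues compared.

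The members split by role. Granins, Scg5, Resp18 and, by 1 of its 2 probe sets, Cpe were high in hypothalamus, and insulin message was high in pancreas, while Gcg in pancreas and Pcsk1 in hypothalamus stayed under or close to the noise bound. Of the 11 probe sets, 6 were called for hypothalamus over pancreas, those of Chga, Chgb, Scg2, Scg5, Resp18 and 1 of Cpe, against 7.16% of all probe sets. All 6 were also called over the other 4 tissues together, which 1.97% of all probe sets were. That call includes the one over pancreas, and among the 936 probe sets called over pancreas 27.6% were called over all 4. The call for pancreas over hypothalamus was made for 3 probe sets, those of Gcg and both of Ins2, against 11.4% of all probe sets, and the remaining 2, of Pcsk1 and Cpe, were called in neither direction. The median log2 difference of hypothalamus minus pancreas was 3.30 over the 11 probe sets and 0.00 over all 13069. The member median is the value of Chga, whose pancreas reading was raised to the floor, so the floor sets its size. With each array's noise bound as floor the difference of Chga was 0.56. No member was above the noise bound in both hypothalamus and pancreas: 8 exceeded it in hypothalamus, 1 in liver, 1 in pancreas, and none in muscle or the adipose-labelled tissue. Over all 13069 probe sets 1204 were above it in both, a small part too, so the absence is not read as a trait of the members. With 1 probe set per gene, 2576 of 6137 genes exceeded the bound in hypothalamus and 989 in pancreas, beside 7 and 1 of 9 members. In RNA from whole tissue, fewer cells of a type and less RNA per cell cannot be told apart.

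**Figure D1:**
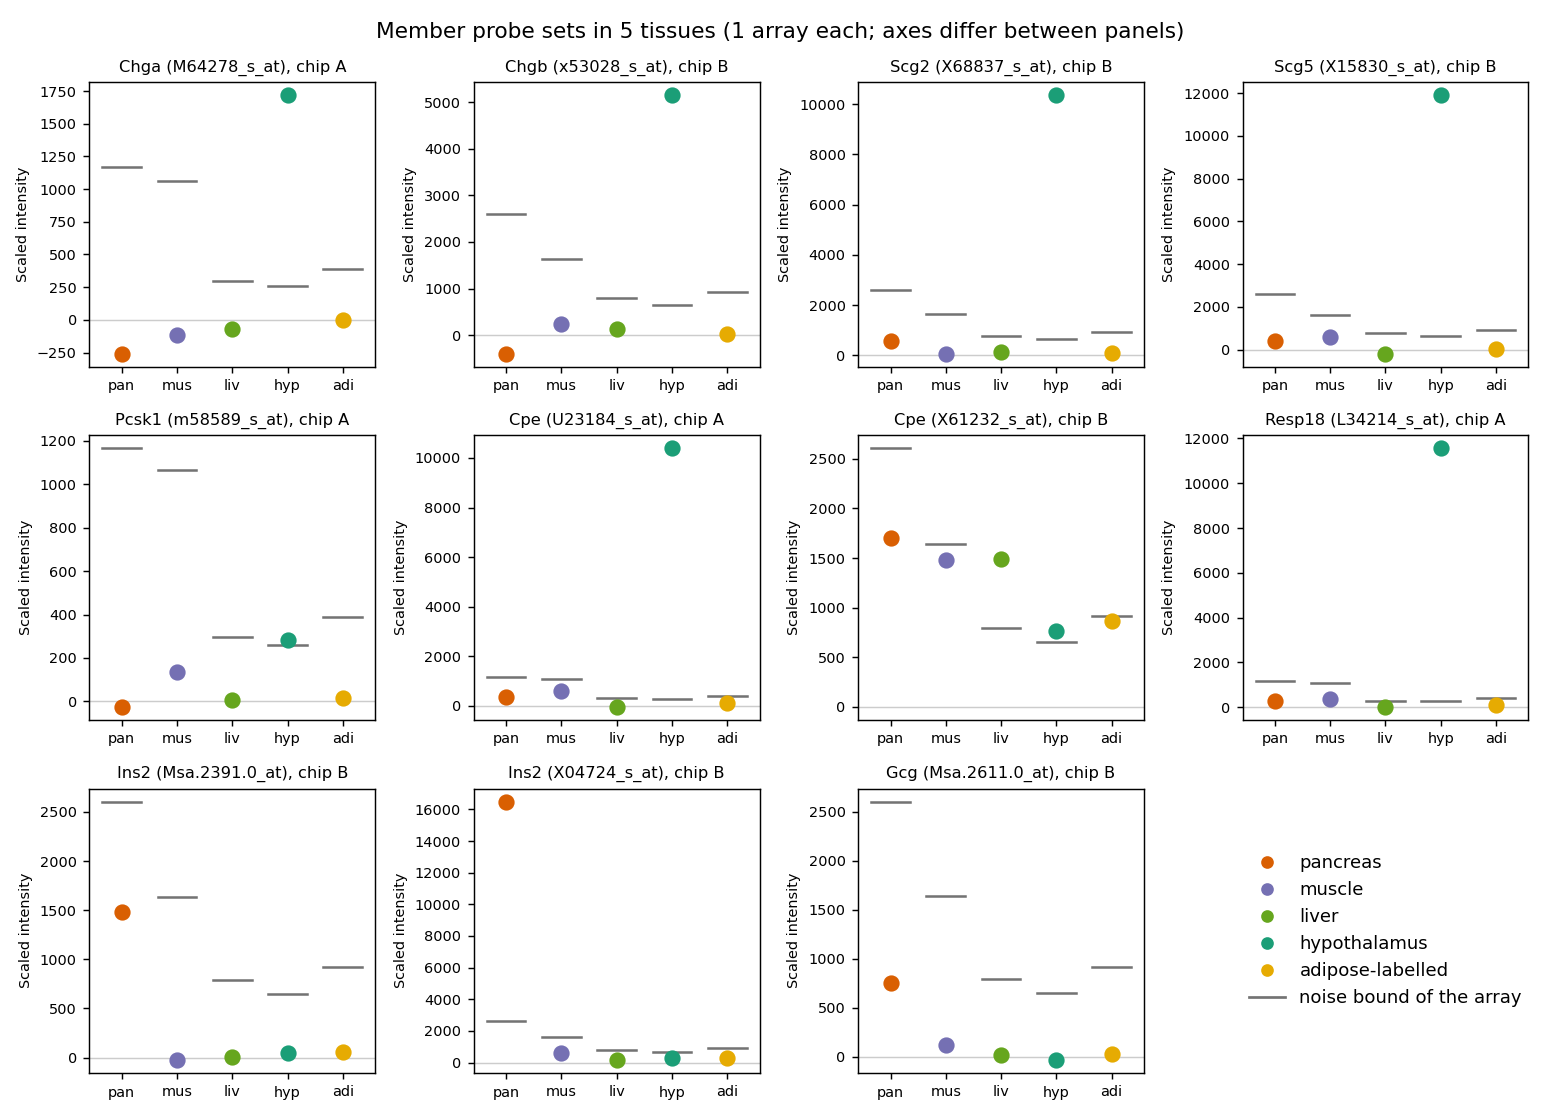
Scaled intensity (y axis, linear, a scale of its own in each panel) of the 11 member probe sets across the 5 tissues; each point is 1 array and each grey bar that array's noise bound. Scg2, Scg5, Resp18 and the chip A probe set of Cpe stand above the bounds in hypothalamus alone, at 10351 to 11896, and the _s probe set of Ins2 reaches 16493 in pancreas.

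The 3 granins were seen in hypothalamus and in no other tissue. Chga, which encodes chromogranin A, the founding member of the family, read 1718 in hypothalamus, -258 in pancreas, -72.8 in liver, -118 in muscle and 2.01 in the adipose-labelled tissue. Hypothalamus was the one tissue above its bound, and the value was at least 5.82-fold above liver and 4.41-fold above the adipose-labelled tissue. It was at least 1.61-fold above muscle and at least 1.47-fold above pancreas, whose noise bounds are higher. Chgb, which encodes chromogranin B, read 5146 in hypothalamus, -397 in pancreas, 127 in liver, 228 in muscle and 18.1 in the adipose-labelled tissue. This was at least 6.50-fold above liver, at least 3.14-fold above muscle and at least 1.97-fold above pancreas. Scg2, which encodes secretogranin II, the precursor of the peptide secretoneurin, read 10351 in hypothalamus, 566 in pancreas, 149.6 in liver, 74.3 in muscle and 79.3 in the adipose-labelled tissue. It was at least 13.1-fold above liver and at least 3.97-fold above pancreas. For the 3 granins the 4 other tissues lay under their bounds, so a granin message in islets below those bounds would not have been seen.

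The start regions of the granin genes are shown because Chgb and Scg2 share a short element there, Chga carries a variant of it, and the 3 genes were high in the same tissue. The cyclic AMP response element, TGACGTCA, binds factors of the CREB family. RefSeq start regions on build GRCm38.p6 matched 8 of the 10 genes, all but Cpe and Ins2. The 250 bases before the start were searched on both strands for TGACGTCA, for the variant TGACGTAA, for their shared core TGACG, which overlaps both, and for TATAAA, motifs picked after the sequences had been seen. For Chga, Chgb, Scg2, Pcsk1, Gcg and Resp18 the 150 bases before the start are given 5′ to 3′ on the strand of the gene. TGACGTCA, TGACGTAA or TATAAA (on either strand) is in capitals. The start regions of Scg5 and Pcsk2 were searched and are not printed.
Chga, chr12:102554791-102554940, + strand: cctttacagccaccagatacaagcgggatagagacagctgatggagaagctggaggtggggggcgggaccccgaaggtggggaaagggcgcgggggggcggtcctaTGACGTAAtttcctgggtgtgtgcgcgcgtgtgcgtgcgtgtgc
Chgb, chr2:132781492-132781641, + strand: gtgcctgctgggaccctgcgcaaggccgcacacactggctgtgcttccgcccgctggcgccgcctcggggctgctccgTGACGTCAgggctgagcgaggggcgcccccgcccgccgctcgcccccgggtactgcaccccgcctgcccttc
Scg2, chr1:79440027-79440176, - strand: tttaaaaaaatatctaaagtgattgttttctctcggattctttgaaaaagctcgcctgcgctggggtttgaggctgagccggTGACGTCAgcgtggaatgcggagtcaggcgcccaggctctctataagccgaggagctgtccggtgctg
Pcsk1, chr13:75089707-75089856, + strand: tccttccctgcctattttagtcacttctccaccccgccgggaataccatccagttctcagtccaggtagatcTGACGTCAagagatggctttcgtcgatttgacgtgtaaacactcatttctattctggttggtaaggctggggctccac
Gcg, chr2:62483654-62483803, - strand: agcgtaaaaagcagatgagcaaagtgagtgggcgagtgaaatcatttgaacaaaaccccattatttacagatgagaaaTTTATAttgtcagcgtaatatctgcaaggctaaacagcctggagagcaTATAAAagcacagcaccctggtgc
Resp18, chr1:75278416-75278565, - strand: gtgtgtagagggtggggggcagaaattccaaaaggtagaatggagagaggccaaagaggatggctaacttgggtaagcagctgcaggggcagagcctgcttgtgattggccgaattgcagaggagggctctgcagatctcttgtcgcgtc

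TGACGTCA began 72 bases before the start of Chgb, 68 before that of Scg2 and 78 before that of Pcsk1, and the variant TGACGTAA began 44 bases before the start of Chga. The full element was thus in 3 of 8 members, and in 1.55% of 32851 start regions of the RefSeq table. The variant was in 1 of 8, and in 0.447% of the table. The core TGACG was in 6 of 8 members, with Scg5 and Pcsk2 holding it without either 8-base form, in 17.8% of the table and in 24.3% of the start regions of genes measured on the chips. In this window Resp18 and Gcg held none of the 3 forms. Gcg, the member called for pancreas whose start region was given, held TATAAA beginning 24 bases before its start, on the strand of the gene, and TATAAA was found in 12.4% of the table. Pcsk1, which held the element, read close to noise in hypothalamus, and Resp18, with none of the forms in its window, was high. Whether these elements bear on the intensities was not tested. Among genes called for hypothalamus over pancreas and above noise, which include the granins, 4.19% of 573 start regions held TGACGTCA, beside 1.05% of 381 for genes called for pancreas and 2.14% of 6262 for all genes measured. In the same order TGACGTAA was in 0.524%, 0.262% and 0.511%, and the core TGACG in 29.3%, 18.4% and 24.3%. Among the 156 start regions of genes called for hypothalamus over all 4 other tissues and above noise, TGACGTCA was in 4.49%, TGACGTAA in 0.641% and TGACG in 21.8%, the last below the share of all genes measured. These 156 also include the granins, whose sequences had been seen when the motifs were picked. Chgb and Scg2 are among the 7 with TGACGTCA, and the 1 with TGACGTAA is Chga, so these shares partly restate the members.

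The genes that assist processing were high in hypothalamus too, and Pcsk1 was close to noise. Scg5 encodes a small secretory protein that binds Pcsk2 and is needed for its maturation. It read 11896 in hypothalamus, 389 in pancreas, -189.5 in liver, 569 in muscle and 18.1 in the adipose-labelled tissue. It was at least 15.0-fold above liver and at least 4.57-fold above pancreas. Resp18, which encodes a protein of the endocrine secretory pathway, read 11554 in hypothalamus, 271 in pancreas, 18.0 in liver, 374 in muscle and 115 in the adipose-labelled tissue. It was at least 39.1-fold above liver and at least 9.91-fold above pancreas. Pcsk1 read 280.5 in hypothalamus, -25.0 in pancreas, 5.99 in liver, 134 in muscle and 15.1 in the adipose-labelled tissue. The hypothalamus value was just above the bound of its array, 258, and under the bounds of the other 4, so no fold is given.

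The probe sets of Cpe disagreed. On chip A Cpe read 10387 in hypothalamus, 361 in pancreas, -48.9 in liver, 588 in muscle and 95.5 in the adipose-labelled tissue, at least 8.91-fold above pancreas and at least 35.2-fold above liver. On chip B it read 759 in hypothalamus, 1699 in pancreas, 1490.2 in liver, 1481 in muscle and 863 in the adipose-labelled tissue. The chip B values spread little between tissues, liver and hypothalamus alone lay above their bounds, and hypothalamus was the lowest. The log2 difference of hypothalamus minus pancreas was 4.85 by the chip A probe set and -1.16 by that of chip B. With arrays scaled by the hybridisation spikes these became 6.04 and 1.49, of the same sign but still far apart. A call by 1 probe set was often not shared by another. Of 1198 genes with at least 2 probe sets, 156 had a probe set called for hypothalamus over pancreas and above noise. In 36 of them (23.1%) another was called as well. How often 2 probe sets differed in direction, as for Cpe, was not counted. The statement that Cpe was high in hypothalamus rests on 1 probe set.

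**Figure D2:**
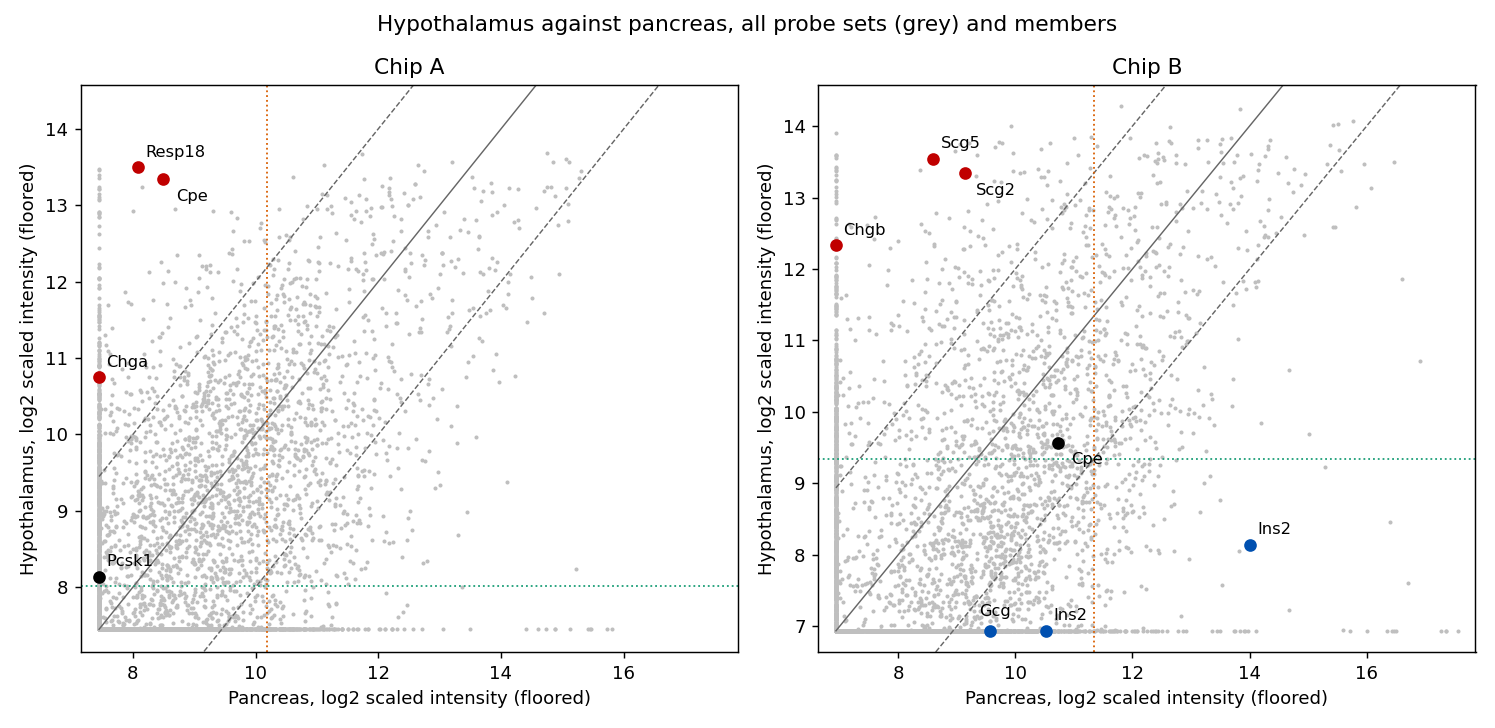
Hypothalamus (y axis) against pancreas (x axis), log2 of scaled and floored intensity, for all probe sets of chips A and B in grey; the solid line marks equal values, dashed lines the 4-fold threshold, and dotted lines the noise bounds. Members called for hypothalamus are red, those called for pancreas blue and the others black; the 6 red points lie left of the pancreas bound, and 1 blue point, of Ins2, lies right of it.

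Insulin message was high in pancreas. By the probe set with the suffix _s, Ins2, which encodes insulin in beta cells, read 16493 in pancreas, 281 in hypothalamus, 167 in liver, 618 in muscle and 319 in the adipose-labelled tissue. The pancreas value was at least 25.4-fold above hypothalamus, 20.8-fold above liver and 10.1-fold above muscle, and the 4 other values were under their bounds. The suffix marks probe sets that may bind more than 1 similar transcript. Mice carry a second insulin gene, Ins1, which had no probe set under its own name, so the signal cannot be assigned to Ins2 alone. The 6 probe sets called for hypothalamus carry the same suffix, so their signals too may include similar transcripts. The other Ins2 probe set read 1477 in pancreas, 44.7 in hypothalamus, 2.0 in liver, -24.1 in muscle and 53.2 in the adipose-labelled tissue. Pancreas was again the highest, but under its bound of 2606. Gcg, which encodes glucagon in alpha cells, read 757 in pancreas, -32.8 in hypothalamus, 14.0 in liver, 116 in muscle and 28.1 in the adipose-labelled tissue. Its pancreas value was called over hypothalamus and lay under the bound, so glucagon message was not distinguished from noise. In the same arrays the hybridisation spikes, bacterial transcripts that serve as controls, read 5.81-fold higher in pancreas than in hypothalamus on chip A and 6.23-fold higher on chip B. With arrays scaled by them the log2 difference of the _s probe set of Ins2 moved from -5.88 to -3.22 and it was still called for pancreas, whereas Gcg moved from -2.63 to -0.61 and the other Ins2 probe set from -3.59 to -1.58, and neither was called.

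The place of a value within its own array does not depend on a scaling factor. The 6 probe sets called for hypothalamus lay between percentile 90.6 and 99.9 of the hypothalamus array of their chip, and between 8.82 and 69.0 of the pancreas array. In liver they lay between 6.52 and 56.6, in the adipose-labelled tissue between 19.3 and 44.2, and in muscle between 16.3 and 72.5. In pancreas all 6 values were under the noise bound, so their order there is not distinguished from noise. The _s probe set of Ins2 stood at percentile 99.0 of the pancreas array and 66.6 of the hypothalamus array, and Gcg at 73.9 and 22.5.

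**Figure D3:**
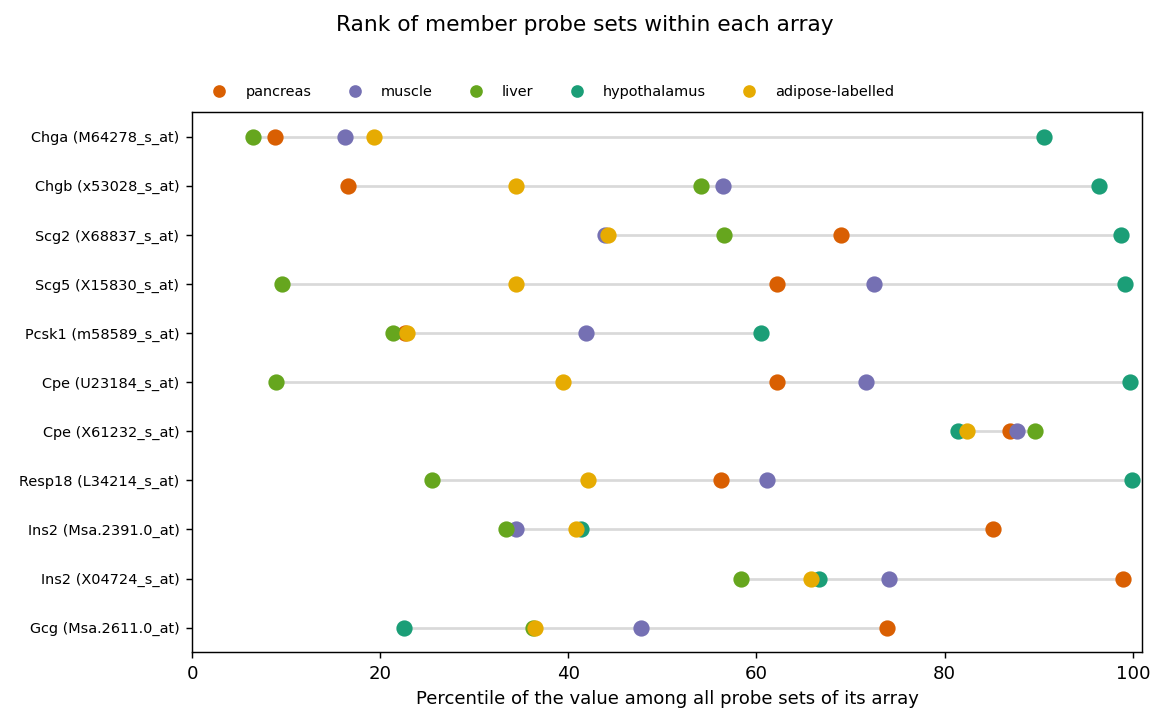
Percentile of each member probe set among all probe sets of its array (x axis), with 1 point per tissue and a grey line over the range. Hypothalamus lies right of the other tissues for the 6 probe sets called there and for Pcsk1, pancreas for Gcg and both probe sets of Ins2, and the chip B probe set of Cpe keeps within percentiles 81.4 to 89.6.

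Other genes of the pathway were taken from lists, with 1 probe set per gene. With 1 probe set per gene, 7.85% of 6137 genes were called for hypothalamus over pancreas and 11.4% for pancreas over hypothalamus. Of 6 measured genes in the list of other granins and granule proteins, 4 were called for hypothalamus and none for pancreas, with a median log2 difference of 2.76, beside 0.00 over all genes. Pcsk1n, whose product inhibits Pcsk1, read 16444 in hypothalamus and 973 in pancreas, at least 6.31-fold higher. Scg3, a granin that binds Chga in granules, read 3028 and -63.0 (at least 2.60-fold), Cadps, which primes granules for release, 1854 and 227 (at least 1.59-fold), and Pam, which amidates peptide ends, 1720 and 307 (at least 1.48-fold). Ptprn and Ptprn2, granule membrane proteins and islet autoantigens, were not called and were named after their values were seen. Ptprn read 6362 in hypothalamus and 3945 in pancreas, both above noise, but also 4940 in muscle.

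The direction of the other convertases and carboxypeptidases depended on the scaling. None of 10 measured genes was called for hypothalamus and 2 were called for pancreas, with a median log2 difference of -1.41. Only 3 of the 10 were above noise in hypothalamus and 4 in pancreas, so the median rests partly on values within noise. With arrays scaled by the spikes 2 were called for hypothalamus and 0 for pancreas, with a median of 0.12. In that setting 20.3% of all probe sets were called for hypothalamus and 0.972% for pancreas, so these counts are near the shares over all. Furin, a convertase of the Golgi found in most cells, read 1495 in pancreas and 18.9 in hypothalamus, at least 5.79-fold higher in pancreas. Cpd, a Golgi carboxypeptidase with the same trimming activity as Cpe, read 2547 and 219.8, at least 9.87-fold higher. Under spike scaling the log2 differences of hypothalamus minus pancreas were -0.69 for Furin and -0.99 for Cpd, the same direction without a call. The lysosomal proteases Ctsl and Ctsb were above noise in both tissues and called for neither, with log2 differences of -1.18 and 0.32. Under spike scaling these became 1.47 for Ctsl, a change of sign, and 2.87 for Ctsb, a call for hypothalamus.

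The precursors that this machinery serves were also unevenly placed. Of 13 measured neuropeptide precursors 7 were called for hypothalamus and 1 for pancreas, with a median of 2.58. Among the 7, Tac1 and Cck read 1121 and 731 in hypothalamus, under the pancreas bounds, so no fold is given. Penk, also called, was at least 1.55-fold higher in hypothalamus. Tac1, Cck and Penk were named after their values were seen. Trh, which encodes thyrotropin-releasing hormone, read 6314 in hypothalamus and 143 in pancreas, at least 2.42-fold higher. Oxt, Avp and Sst, the precursors of oxytocin, vasopressin and somatostatin, read 11298, 10766 and 9721 in hypothalamus and below 0 in pancreas. Against the pancreas noise bounds they were at least 9.69-fold, 9.23-fold and 3.73-fold higher. The exception was Gal, which encodes galanin and was picked out once its values were known: it read 9348 in pancreas and 2292 in hypothalamus, above noise in both, a 4.08-fold difference that was not called with 75th percentile scaling, quantile normalization or scaling by the spikes. Among 11 other islet hormones and islet genes, 1 was called for hypothalamus and 2 for pancreas, with a median of -0.99. Of the 11, 2 were above noise in hypothalamus and 3 in pancreas. The median is the value of Nkx2-2, which was under the bound in both tissues, so it does not describe measured islet message. Under spike scaling 1 was called in each direction and the median was 0.00. The gene called for hypothalamus was Sst. Ppy, which encodes pancreatic polypeptide, read 1964 in pancreas and 122 in hypothalamus, at least 7.61-fold higher, but also 1665 in muscle, and its log2 difference moved from -3.49 to -1.09 under spike scaling, where it was not called. Reg1 read 45407 in pancreas, at least 176-fold above hypothalamus, and is known from acinar cells as well as from islets. The ATP-sensitive potassium channel gene Kcnj11 read 1171 in pancreas and 305 in hypothalamus and was highest in liver, at 1920.

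**Figure D4:**
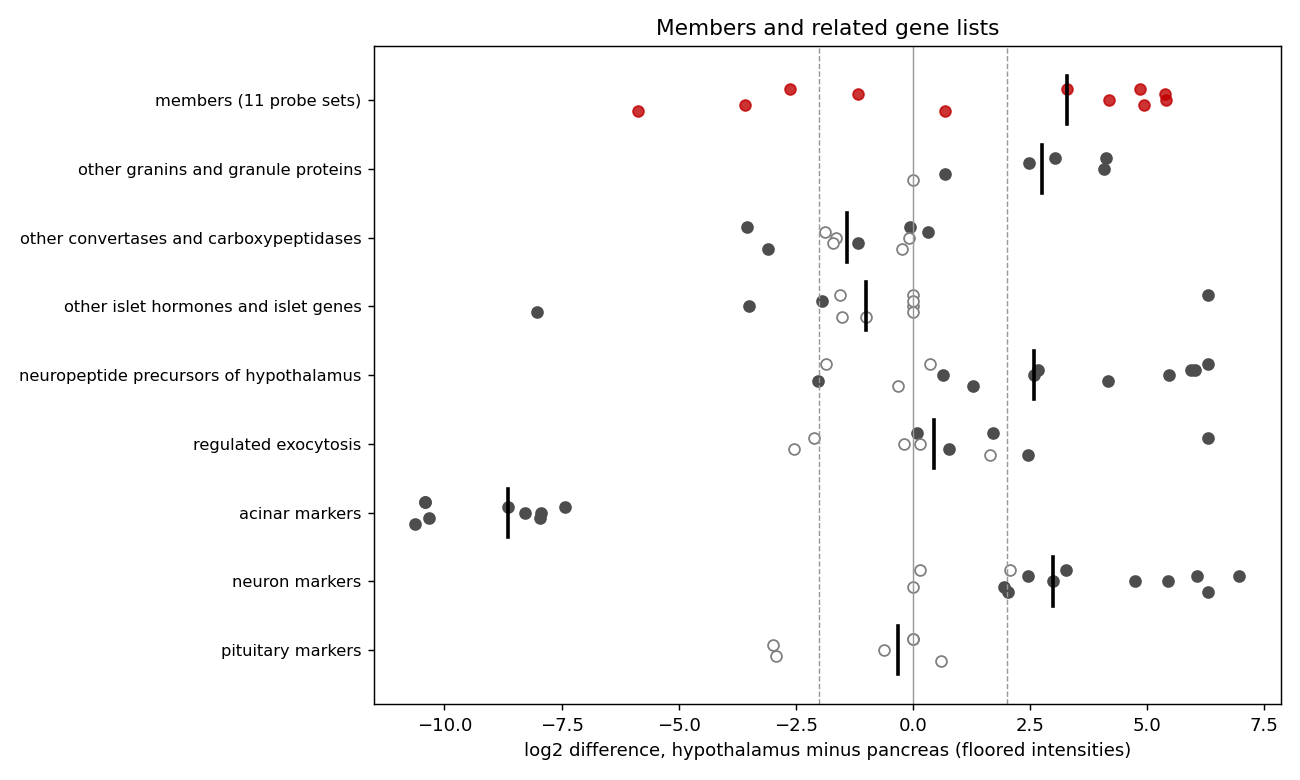
log2 difference of hypothalamus minus pancreas on floored intensities (x axis) for the 11 member probe sets in red and for the genes of 8 lists in grey, open where the gene is under the noise bound in both tissues; short black lines are medians and dashed lines the 4-fold threshold. Medians lie at 3.30 for the members, 2.76 for other granins and granule proteins, -1.41 for convertases and carboxypeptidases (0.12 under spike scaling), and -8.64 for acinar markers.

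The labels of both tissues were set against markers. All 9 measured acinar markers were called for pancreas, with a median log2 difference of -8.64, and none was above noise in hypothalamus. Prss2, Rnase1, Amy2a5 and Cela2a, which encode secreted digestive enzymes, were each at least 243-fold higher in pancreas. Of 13 neuron markers 10 were called for hypothalamus, 9 of them above noise there, with a median of 2.99. Sncb, Thy1, Syp and Gad1 were at least 6.55-fold, 5.89-fold, 3.69-fold and 3.17-fold higher there. The summed intensity of all 13 neuron markers was 71711 in hypothalamus and 3111 in pancreas. In pancreas 1 of the 13, Stmn3, was above noise, at 3402, and the other 12 summed to -291. Stmn3 was named for this after its values were seen. No pituitary marker of 6 measured was above noise in either tissue, so pituitary message was not seen beside the granins of the hypothalamus sample. In pancreas 2 of 8 hepatocyte markers were called and above noise, Ttr at 1995 and Serpina1a at 3949, and Ttr is also known from islets. Of 8 muscle markers 1 was called and above noise in pancreas, Actn3 at 1388, and of 7 adipocyte markers 1, Retn at 1379. Under spike scaling these 4 genes were not called, with log2 differences of -1.11 for Ttr, -0.38 for Serpina1a, -0.59 for Actn3 and -0.15 for Retn. In hypothalamus 3 muscle markers were above noise, Ckm at 1946, Pygm at 438 and Acta1 at 320, and 1 adipocyte marker, Lipe, at 281. Under spike scaling Ckm was called for hypothalamus, at 3.19. The part of these other tissues in the values of the members was not tested.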

How the data were processed

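Per the labels' protocols, 10 µg of Trizol-extracted total RNA per array was turned into biotinylated cRNA for Affymetrix chips. The deposited intensities are linear and whole numbers, scaled and reduced by a subtracted signal before deposit, as their equal trimmed means and their negative values show. The software is not given in the sources used here. Controls (55 per chip) were left out, arrays were divided by their mean after trimming 2% at each end and multiplied by the mean of the 5 arrays of the chip, and values under the floor, the median of the array medians, were raised to it. Groups came from titles, for adipose from the source label. Gene names came from the platform annotation, with symbols updated through the RefSeq table of GRCm38.p6. With 1 array per tissue and chip no test was made and no p-value is given. Of the 76 probe sets on both chips, 16, mostly controls, were above noise in hypothalamus and pancreas on both. Their log2 difference had a technical SD of 0.28 and differed between chips by at most 0.77. Every member was named, and from each list the up to 4 genes with the largest difference between hypothalamus and pancreas among those above noise in either. Members and lists were chosen with earlier results of these data known. Of the measured genes Sst, Snap25, Syt1 and Syp are in more than 1 list. Calls were also run on simulated data with the same noise in every tissue. The real arrays differ in noise, so that run cannot vouch for calls where the pancreas value is under its bound. Alternatives covered scaling, floor, threshold, probe set choice and tissues left out. Python 3.11.15, pandas 2.3.3 and numpy 2.4.6 were used.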

Additional observations from a re-analysis of the deposited data

How the results depend on the processing

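The counts of member probe sets called for hypothalamus over pancreas (6), for hypothalamus over the other 4 tissues (6) and for pancreas over hypothalamus (3) were recomputed under other settings of scaling, floor, threshold and probe set choice, and under some chosen after seeing the data (spike scaling, the noise conditions, and leaving out _s probe sets). A floor at the 75th percentile left 1 for pancreas. With each array's noise bound as its floor the hypothalamus counts were 3 and 3, since the pancreas bound then sets the comparison, and 72.2% of all probe sets counted as called for pancreas. Asking for a fold of at least 4 against the noise bound gave 3, 3 and 1, and asking that the called value itself be above noise left 1 for pancreas. Spike scaling left 1 for pancreas, the _s probe set of Ins2. Without _s and relaxed probe sets the hypothalamus counts were 0 and 0, since 9 of the 11 members carry that suffix and 2 remain. The other settings kept the counts within 1.5 times. Leaving out pancreas, muscle, liver or the adipose-labelled tissue in turn was run only for the count over the other 4 tissues. That count stayed at 6, but comparing with fewer tissues cannot lower it, so these runs do not bear on its stability. Over all probe sets the shares called for hypothalamus and for pancreas were 7.16% and 11.4%, against 8.84% and 7.63% with 75th percentile scaling, 8.72% and 7.83% with quantile normalization and 20.3% and 0.972% with spike scaling. Among 1204 probe sets above noise in both tissues the median log2 difference was -1.0, -0.69, -0.83 and 1.56 in the same order, and the differences of members are to be read against these shifts. The log2 difference kept its sign under the alternatives run for the 9 called probe sets. Ranges were 3.31 to 6.87 for Resp18, 0.56 to 6.42 for Chga and -5.88 to -3.22 for the _s probe set of Ins2. Pcsk1 ranged from -2.06 to 3.81. With the noise bound as floor, Gcg and the other Ins2 probe set gave the same -2.01. That value is set by the bounds of the 2 arrays, so their sign in that setting says nothing of these genes. No paired analysis was possible because each tissue has 1 array on each chip. The noise bounds of the pancreas arrays limit what can be said of islet messages.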

Other observations

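Of 10 measured genes of regulated release, 2 were called for hypothalamus and 2 for pancreas, with a median log2 difference of 0.46, and neither of the pancreas calls was above noise. With 75th percentile scaling or quantile normalization the counts were 2 and 0, with medians of 0.65 and 0.74, and with spike scaling 4 and 0, with a median of 1.79. Syp, a membrane protein of synaptic vesicles, read 9614 in hypothalamus and -326 in pancreas, at least 3.69-fold higher. Snap25, a protein of the fusion machinery, read 959 in hypothalamus and 15.0 in pancreas, under the pancreas bound of 1166. Stx1a and Syt4, also of the release machinery, read 576 and 299 in hypothalamus, above its bound of 258, and were not called. Of the transcription factors of islets, Pdx1, Neurod1, Neurog3, Pax6 and Nkx2-2 had probe sets, and in both tissues none was above noise. Iapp, which encodes amylin and is released with insulin, read 510.3 in pancreas and -32.8 in hypothalamus, under the pancreas bound. Slc2a2, the glucose transporter of beta cells and hepatocytes, read 6377 in liver and 467 in pancreas. These 7 genes were named after their values were seen.

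Th, which encodes the first enzyme of catecholamine synthesis, read 585 in hypothalamus, above the bound of 258, and 1150 in pancreas, under the bound of 1166. It was also 1267 in muscle, above the muscle bound.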
